A study of Homo sapiens with 9 samples.

Results

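The homologous recombination and Fanconi genes examined here are 38 genes taken by name from a count table of 26475 gene symbols, in a list drawn up with earlier results of these data known. They comprise 7 genes of break sensing and end resection, BRCA1, BRCA2 and 2 of their direct partners, 8 genes of recombination mediators and strand exchange factors (RAD51B, RAD51C, RAD51D, XRCC2, XRCC3, RAD51AP1, RAD54L and RAD54B), 12 genes of the Fanconi anemia pathway, 6 checkpoint kinases and mediators, and the mismatch repair gene MSH6. All 38 were found in the table and all 38 passed the filter on low counts, which left 16417 genes for testing. Their counts in a library ran from 141 (RAD51B) to 7574 (MSH6).

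A375, an established human melanoma cell line that carries a BRAF mutation, was treated for 24 h with the vehicle DMSO, with 5 µM TP-472 or with 10 µM TP-472, and 3 mRNA libraries were sequenced per group. The compound TP-472 blocks the bromodomains of BRD9 and BRD7, which bind acetylated histones. All groups come from this 1 line and from 1 time point, so that a response of other melanoma cells cannot be read from these libraries. There is no inactive control compound, so that effects of TP-472 through BRD9 and BRD7 cannot be told apart from its other effects. The submitters call the replicates biological and do not say what was handled separately. The p-values set differences between groups against the spread of these 9 libraries within their groups, and what that spread holds is not known. Because the libraries were made from bulk cells, fewer cells in S phase and less RNA per cell cannot be told apart for genes that vary over the cell cycle.

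Homologous recombination repairs a DNA double-strand break by copying the intact sister chromatid. Nucleases resect the broken ends, BRCA1 and its partners bring BRCA2 to the resected DNA, and mediator complexes and RAD54 proteins assist the search for the matching strand and the exchange of strands. The Fanconi anemia pathway deals with crosslinks between the DNA strands: a nuclear core complex with the ligase FANCL and the conjugating enzyme UBE2T adds ubiquitin to the FANCD2 and FANCI pair, which directs the processing of the crosslink. The kinases ATM and ATR sense breaks and stalled forks and act through CHEK2 and CHEK1. Many of these genes are known to be transcribed mainly in late G1 and S phase.

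At 10 µM, 21 of the 38 genes were lower than in DMSO and 1, RAD51C, was higher (adjusted p under 0.05 over all genes tested), while 16 did not pass the test. Of all genes tested, 18.0% were lower and 16.4% higher in this comparison. At 5 µM, 8 of the 38 were lower and 1, again RAD51C, was higher, against 5.81% and 4.40% of all genes tested. Between the doses, 5 of the 38 were lower at 10 µM than at 5 µM and none was higher, against 5.53% and 2.87%. With a fold of at least 1.5 required as well, 17 genes were lower and 1 was higher at 10 µM (10.5% and 8.57% of all genes), and 1 was lower and none higher at 5 µM (2.72% and 2.14%). No gene passed both limits between the doses (2.59% lower and 1.42% higher over all genes), where 5 passed the adjusted threshold alone in edgeR. An unadjusted p under 0.05 was found for 20, all of them lower, and 3 passed both limits in DESeq2. Shares over all genes are not given for the unadjusted and DESeq2 counts, so that these counts alone show nothing particular to the 38 genes. The median log2 fold change of the 38 genes was -0.26 at 5 µM, -0.56 at 10 µM and -0.32 between the doses, with medians of 0.01, 0.01 and 0.00 over all genes tested. Both dose comparisons use the same DMSO libraries.

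**Figure D1:**
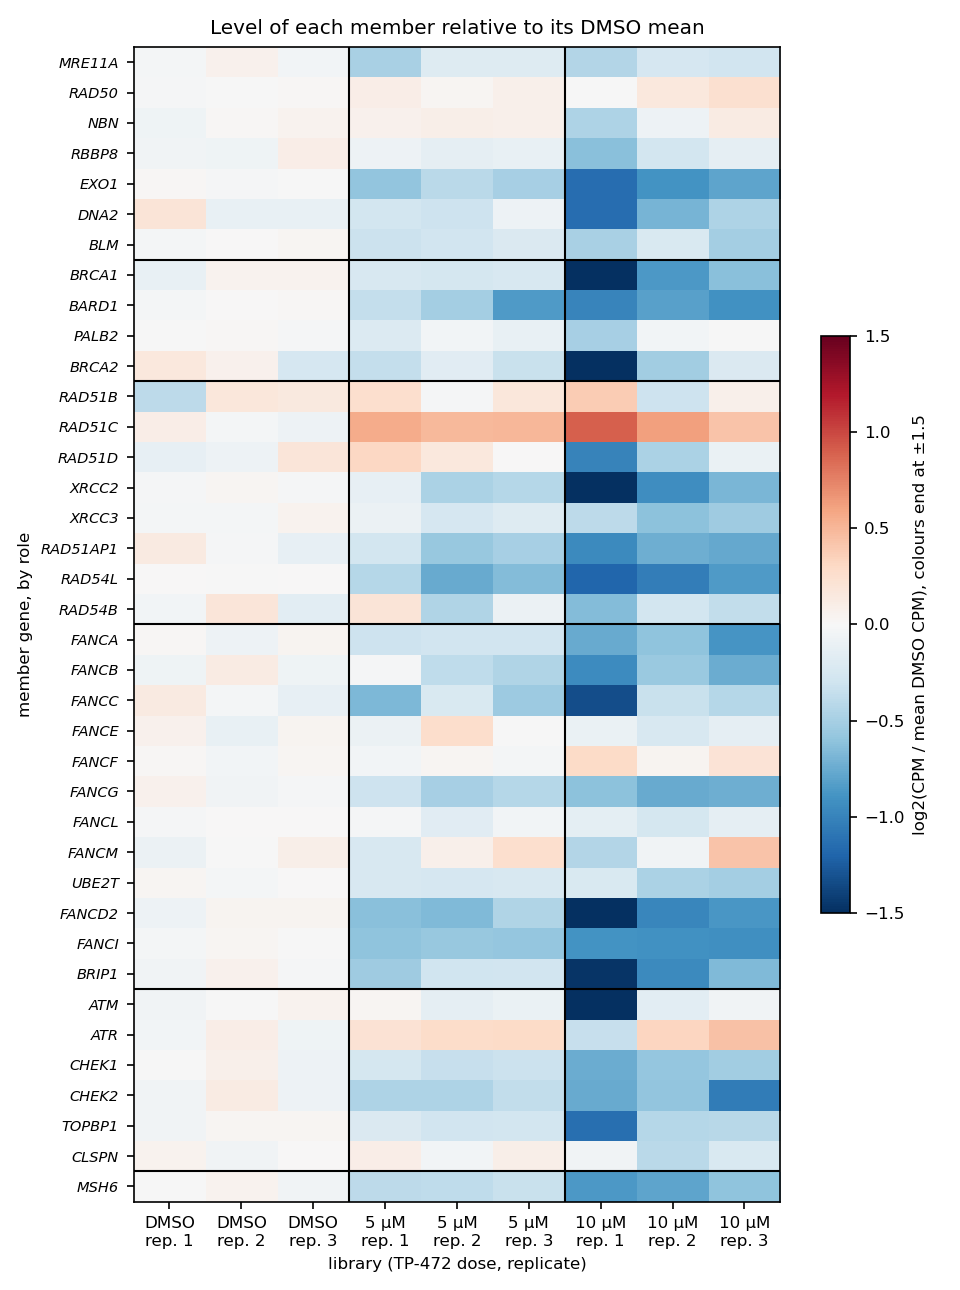
Level of each of the 38 genes (rows, by role, separated by lines) in each of the 9 libraries (columns), as the log2 ratio of its CPM to its mean in the DMSO libraries, with colours ending at ±1.5. The block of blue at 10 µM covers genes in every role, RAD51C is the row that turns red at both doses, and the darkest cells fall in 10 µM replicate 1.

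The libraries held 42483061 to 51298108 counts each, and ribosomal RNA genes took 8.20% to 19.9% of them. Of 10 melanoma and melanocyte markers 7 had a mean of at least 1 CPM over the 9 libraries, and they summed to 1058 to 1080 CPM in DMSO, with 911 to 927 CPM for 5 µM and 891 to 954 CPM for 10 µM, and TYR, which encodes the pigment enzyme tyrosinase, was at 0 in every library. Of the markers of other cell types, 1 of 5 for keratinocytes, 1 of 5 for leukocytes (CD68) and 2 of 4 for endothelium did so, and the leukocyte sum was 53.4 to 58.9 CPM in DMSO and 87.4 to 131 CPM at 10 µM, nearly all of it CD68. For the endothelial markers the sum lay between 4.16 and 5.56 CPM with DMSO, between 5.67 and 9.35 CPM with 5 µM and between 10.3 and 16.3 CPM with 10 µM, and most of its rise was in KDR, a receptor for VEGF, which rose 2.98-fold at 5 µM (adjusted p = 0.0119) and 5.66-fold at 10 µM (adjusted p = 0.000287). The keratinocyte markers of the DMSO libraries summed to between 7.19 and 8.43 CPM, those of the 10 µM libraries to between 6.15 and 10.5 CPM, and the part of these markers in the results was not tested. The defining leukocyte marker PTPRC stayed at or below 0.54 CPM in all libraries. Levels are given in CPM, counts scaled to library size but not to gene length, so that a gene is compared only with itself across libraries.

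One library stood apart. 10 µM replicate 1 was the lowest of the 3 libraries at 10 µM for 25 of the 38 genes, against 7065 of the 16417 genes tested. For the 15 genes whose longest transcript exceeds 5 kb its median level was 63.4% of the mean of the other libraries at 10 µM, for the 14 genes of 3 to 5 kb it was 80.6%, and for the 9 shorter genes 109%. The same medians over all genes were 75.5%, 95.9% and 123%. ATM, with an annotated transcript of 13147 bases, showed 19.2 CPM in this library and 52.02 and 56.1 CPM in the others, and BRCA2 showed 3.70 CPM against 10.2 and 12.7 CPM. Across the 38 genes the log ratio of this library to the others fell with log length (Pearson r = -0.68, Spearman rho = -0.61, a description across genes that share 3 libraries). For most genes the value at 10 µM is therefore also given without it. Then 26 of the 38 genes were lower and 3 higher at 10 µM (25.8% and 23.0% of all genes), 14 of them lower and none higher with a fold of at least 1.5 (11.0% and 8.17%). At 5 µM, 19 were lower and 2 higher (17.6% and 16.5%), 1 of them lower and none higher with the fold (3.98% and 3.43%). Between the doses 18 were lower and none higher (15.4% and 8.80%), and none passed with the fold (3.27% and 1.91%). The median at 10 µM was then -0.40 on the log2 scale.

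**Figure D2:**
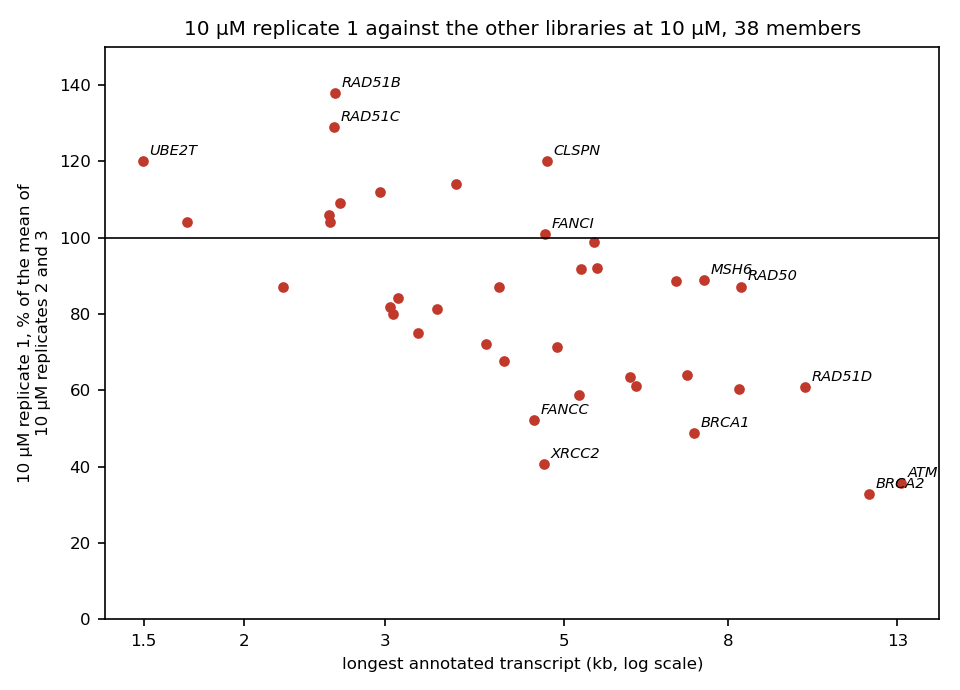
Level of each of the 38 genes in 10 µM replicate 1 as a percentage of its mean in 10 µM replicates 2 and 3 (vertical axis), against its longest annotated transcript in kb (horizontal axis, log scale). Each point is 1 gene and the line marks 100%. The longest genes, BRCA2 and ATM, lie near 33% and 36%, and most short genes lie near or above the line.

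The stretches before the transcription starts of these genes were searched for short motifs, among them the box CCAAT, the binding site of the factor NF-Y. RefSeq promoter entries on GRCh38.p14 were matched for 34 of the 38 genes. Only the first full-length entry listed for a symbol was searched, so that a motif before another start of a gene was missed. The window of RAD51B lies inside its annotated gene, and that of BRCA1 lies upstream of its whole annotated gene. Starts farther inside BRCA1 were thus not searched. On either strand of the 150 bases before the start, CCAAT occurred in 15 of the 34 (44.1%), in 24.4% of all 27305 promoters and in 27.2% of the 11784 promoters of tested genes. Of the 19 matched genes that were lower at 10 µM, 11 (57.9%) had it, and of the other 15, 4 (26.7%) had it. In the whole entry of 300 bases the share was 47.1% of the 34, against 35.7% of all promoters and 36.7% of those of tested genes, so that the excess depends on the window. The motif is short and the counts are small, so that these shares describe these windows and show no binding. RAD54L, RAD51AP1, BRIP1, CHEK1 and CHEK2 were picked as genes that fell and hold the box, to show where it lies, and RAD51C is the gene that rose. In the windows searched, the box was not found for 8 matched genes that fell (EXO1, BRCA1, BARD1, XRCC2, FANCB, FANCG, FANCD2 and TOPBP1). It was found for CLSPN, which was not called. The sequences run 5′ to 3′ along the gene, in lower case, with each CCAAT, or ATTGG where it lies on the opposite strand, in capitals.
RAD54L, chr1:46247538-46247687, plus strand: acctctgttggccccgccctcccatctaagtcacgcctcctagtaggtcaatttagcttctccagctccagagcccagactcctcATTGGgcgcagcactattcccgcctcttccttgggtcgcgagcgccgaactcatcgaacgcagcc
RAD51AP1, chr12:4538740-4538889, plus strand: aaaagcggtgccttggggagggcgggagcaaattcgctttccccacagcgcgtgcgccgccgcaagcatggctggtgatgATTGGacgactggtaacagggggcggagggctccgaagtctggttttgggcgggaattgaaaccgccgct
BRIP1, chr17:61863529-61863678, minus strand: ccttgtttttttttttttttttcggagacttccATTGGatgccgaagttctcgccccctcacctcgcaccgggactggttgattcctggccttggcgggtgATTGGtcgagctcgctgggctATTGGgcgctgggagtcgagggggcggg
CHEK1, chr11:125626079-125626228, plus strand: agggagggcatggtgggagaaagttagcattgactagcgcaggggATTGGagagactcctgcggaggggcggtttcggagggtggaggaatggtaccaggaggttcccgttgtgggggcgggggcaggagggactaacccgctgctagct
CHEK2, chr22:28741821-28741970, minus strand: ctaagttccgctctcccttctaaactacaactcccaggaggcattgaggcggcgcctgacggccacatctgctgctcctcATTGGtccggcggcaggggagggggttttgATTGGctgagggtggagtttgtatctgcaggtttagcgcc
RAD51C, chr17:58692423-58692572, plus strand: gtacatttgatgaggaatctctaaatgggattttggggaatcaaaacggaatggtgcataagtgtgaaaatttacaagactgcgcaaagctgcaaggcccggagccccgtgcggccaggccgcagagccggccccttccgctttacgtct
BRIP1 held 3 copies and CHEK2 held 2, and the RAD51C window held none.

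Motifs of the E2F type (TTTCCCGC, TTTCGCGC, TTTGCCGC or TTTGGCGC), the sites of the E2F factors that drive S-phase genes, were found in only 1 of the 34 stretches of 150 bases, that of FANCC, against 1.82% of all promoters and 2.67% of those of tested genes. In the whole entry of 300 bases, from 250 before to 50 after the start, 8 of the 34 had one (23.5%, against 3.33% of all promoters and 4.98% of those of tested genes), so that this share depends on the window. They were EXO1, XRCC2, FANCA, FANCC, FANCD2, TOPBP1, CLSPN and MSH6. Of the 19 matched genes that were lower at 10 µM, 6 (31.6%) had one, and of the other 15, 2 (13.3%) had one. These counts are small and the difference was not tested. The windows of 30 bases around the match, with the match in capitals, are given for those with a match close to the start.
EXO1, chr1:241848197-241848226, plus strand, first capital at 5 from the start: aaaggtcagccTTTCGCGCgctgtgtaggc
XRCC2, chr7:152676102-152676131, minus strand, first capital at 22 from the start: tggcgttggtgGCGGGAAAgttgagtctct
FANCD2, chr3:10026424-10026453, plus strand, first capital at -2 from the start: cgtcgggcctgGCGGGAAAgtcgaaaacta
TOPBP1, chr3:133661930-133661959, minus strand, first capital at -7 from the start: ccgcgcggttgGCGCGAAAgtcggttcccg
CLSPN, chr1:35769965-35769994, minus strand, first capital at -5 from the start: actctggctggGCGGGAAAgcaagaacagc
MSH6, chr2:47783137-47783166, plus strand, first capital at 4 from the start: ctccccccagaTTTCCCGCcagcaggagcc
The matches not shown lay farther from the start, at -172 for FANCA and at -46 and -172 for FANCC. The other motifs searched in the 150 bases were the ETS motif CCGGAAG, in 6 of 34 (17.6%, against 7.18% of all promoters and 11.8% of those of tested genes), the CHR motif TTTGAA, in 1 (2.94%, against 7.44% and 4.18%), and the NRF1-type motif GCATGCGC, in 1 (2.94%, against 2.33% and 3.66%). The ETS motif stood before RAD50, BRCA2, RAD51D, FANCD2, ATM and ATR. Of the 19 matched genes that were lower at 10 µM, 1 (5.26%), FANCD2, had it, and of the other 15, 5 (33.3%) had it. This difference was not tested either.

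Of the 7 genes of break sensing and end resection, EXO1, DNA2 and BLM, which carry out long-range resection, fell at 10 µM, as did the nuclease MRE11A, against 18.0% of all genes tested. RAD50, NBN and RBBP8 did not pass the test, and differences between genes were not tested. EXO1 (chr1:241847967-241895148, plus strand), the exonuclease that extends resection, stood at 44.8, 43.6 and 44.1 CPM in DMSO, 29.3, 33.5 and 31.4 CPM at 5 µM and 20.00, 23.7 and 25.5 CPM at 10 µM. The 3 groups did not overlap, and each 10 µM library was below each 5 µM library. EXO1 fell 1.41-fold at 5 µM and 1.92-fold at 10 µM, with log2 fold changes of -0.49 (SE 0.10, adjusted p = 0.012) and -0.94 (SE 0.10, adjusted p = 8.99e-05). Without 10 µM replicate 1 the change at 10 µM was -0.85 (adjusted p = 1.08e-07). It was also 1 of the 5 genes lower at 10 µM than at 5 µM, at -0.44 (SE 0.10, adjusted p = 0.0256) on the log2 scale.

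DNA2 (chr10:68414064-68472121, minus strand), a nuclease and helicase that acts in parallel to EXO1 together with BLM, stood at 18.2, 14.7 and 14.7 CPM in DMSO, 13.1, 12.7 and 15.1 CPM at 5 µM and 7.21, 9.81 and 11.6 CPM at 10 µM. All 10 µM libraries were below all others, while 5 µM overlapped DMSO. DNA2 changed by -0.74 (SE 0.17, adjusted p = 0.00822) at 10 µM on the log2 scale, and by -0.57 (adjusted p = 0.00118) without 10 µM replicate 1. BLM, the helicase mutated in Bloom syndrome, changed by -0.40 (SE 0.10, adjusted p = 0.0107) at 10 µM, and -0.36 (adjusted p = 0.00491) without that library. MRE11A, listed as MRE11 in newer annotation, changed by -0.33 (SE 0.10, adjusted p = 0.0272), and by -0.27 (adjusted p = 0.0104) without that library, while a fit with an offset for length and GC content gave -0.125 (adjusted p = 0.393) and the call was also lost without each DMSO library. NBN, which links the MRN complex of MRE11, RAD50 and NBN to ATM, stood at 95.7, 101 and 104 CPM in DMSO, 105, 106 and 106 CPM at 5 µM and 72.9, 95.2 and 109 CPM at 10 µM, which lay within or above the DMSO range except in 10 µM replicates 1 and 2. NBN changed by -0.12 (SE 0.12, adjusted p = 0.506) at 10 µM on the log2 scale, and by 0.02 (adjusted p = 0.76) without replicate 1. RAD50, the third subunit, changed by 0.13 (SE 0.08, adjusted p = 0.208), and by 0.19 (adjusted p = 0.003) without that library, which passed the test as a rise. RAD50 shares 79.7% of its exonic bases with another annotated gene on the same strand, AC116366.3, so that its reads may be divided. RBBP8, which encodes the resection factor CtIP, changed by -0.33 (SE 0.12, adjusted p = 0.0501), just outside the threshold, and by -0.21 (adjusted p = 0.0166) without replicate 1.

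BRCA1 and BARD1, which form one ubiquitin ligase, fell at 10 µM, against 18.0% of all genes tested. PALB2 and BRCA2 did not pass the test. BRCA1 (chr17:43044295-43170245, minus strand) stood at 55.2, 61.5 and 61.5 CPM in DMSO, 50.2, 49.5 and 50.2 CPM at 5 µM and 17.3, 32.7 and 38.6 CPM at 10 µM. The 3 groups did not overlap, and 10 µM replicate 1 stood at 48.7% of the mean of the other libraries at that dose. BRCA1 fell 2.01-fold at 10 µM, its log2 fold change being -1.01 (SE 0.23, adjusted p = 0.00706), and -0.74 (adjusted p = 6.03e-07) without replicate 1. At 5 µM its change of -0.25 (SE 0.22, adjusted p = 0.573) did not pass, although every 5 µM library was below every DMSO library, and without 10 µM replicate 1, which also enters the shared estimate of spread, it was -0.25 (adjusted p = 0.00634). BARD1 (chr2:214725646-214809711, minus strand) stood at 8.17, 8.31 and 8.44 CPM in DMSO, 6.51, 5.85 and 4.62 CPM at 5 µM and 4.19, 4.71 and 4.42 CPM at 10 µM. It was lower in every treated library than in DMSO and its 2 doses overlapped. Its log2 fold change was -0.55 (SE 0.15, adjusted p = 0.0427) at 5 µM and -0.90 (SE 0.15, adjusted p = 0.00136) at 10 µM, the latter -0.87 (adjusted p = 0.000351) without replicate 1.

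PALB2 (chr16:23603160-23641310, minus strand), which bridges BRCA1 and BRCA2, stood at 23.3, 23.6 and 23.1 CPM in DMSO, 20.3, 22.7 and 21.6 CPM at 5 µM and 16.5, 22.6 and 23.2 CPM at 10 µM. The libraries of 10 µM replicates 2 and 3 were close to DMSO. PALB2 changed by -0.17 (SE 0.12, adjusted p = 0.332) at 10 µM on the log2 scale, and by -0.03 (adjusted p = 0.776) without replicate 1. BRCA2, a mediator of strand exchange, changed by -0.73 (SE 0.34, adjusted p = 0.126) at 10 µM with replicate 1 included and by -0.37 (adjusted p = 0.0281) without it. Its 10 µM libraries overlapped DMSO, since DMSO replicate 3 stood at 12.4 CPM and 10 µM replicate 3 at 12.7 CPM.

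The genes of the mediator complexes moved in different directions. At 10 µM RAD51C rose, XRCC2 and XRCC3 fell, and RAD51B and RAD51D did not pass the test. Of all genes tested, 18.0% were lower and 16.4% higher at that dose. RAD51C (chr17:58692573-58735611, plus strand), a subunit of both mediator complexes and itself a Fanconi gene, stood at 27.1, 24.8 and 24.02 CPM in DMSO, 37.3, 35.4 and 35.7 CPM at 5 µM and 47.2, 38.8 and 34.1 CPM at 10 µM. Every treated library was above every DMSO library, and the doses overlapped. RAD51C rose 1.43-fold at 5 µM and 1.58-fold at 10 µM, with log2 fold changes of 0.51 (SE 0.12, adjusted p = 0.0212) and 0.66 (SE 0.12, adjusted p = 0.00187). Replicate 1 was its highest library at 10 µM, and without it the change was 0.52 (adjusted p = 3.57e-05), which passed the test and fell short of a fold of 1.5.

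XRCC2 (chr7:152644779-152676165, minus strand), a subunit of the complex of RAD51B, RAD51C, RAD51D and XRCC2, stood at 15.4, 16.05 and 15.5 CPM in DMSO, 14.3, 11.3 and 11.6 CPM at 5 µM and 3.59, 8.19 and 9.76 CPM at 10 µM. The 3 groups were separate, and 10 µM replicate 1 was at 40.7% of the mean of the others at that dose. XRCC2 changed by -1.12 (SE 0.29, adjusted p = 0.013) at 10 µM on the log2 scale, and by -0.81 (adjusted p = 4.52e-05) without replicate 1. XRCC3, the partner of RAD51C in the second complex, changed by -0.51 (SE 0.09, adjusted p = 0.00184) at 10 µM and by -0.34 (SE 0.09, adjusted p = 0.046) between the doses. Of the exonic bases of XRCC3, 76.7% are overlapped by KLC1 on the opposite strand, and the sources used here do not give the strand setting of the counting. RAD51B (chr14:67819779-68730218, plus strand) stood at 2.84, 4.20 and 4.11 CPM in DMSO, 4.43, 3.66 and 4.19 CPM at 5 µM and 4.83, 3.00 and 3.93 CPM at 10 µM. It was the least counted of the 38 genes and its groups overlapped. RAD51B changed by 0.08 (SE 0.23, adjusted p = 0.827) at 10 µM on the log2 scale, and by -0.10 (adjusted p = 0.738) without replicate 1. RAD51D changed by -0.48 (SE 0.21, adjusted p = 0.102) at 10 µM, and by -0.28 (adjusted p = 0.131) without replicate 1.

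Among the accessory factors, RAD54L and RAD51AP1 fell at both doses and RAD54B did not pass the test. Of all genes tested, 5.81% were lower at 5 µM and 18.0% at 10 µM. RAD54L (chr1:46247688-46278473, plus strand), a motor protein that drives strand exchange, stood at 28.4, 28.1 and 28.5 CPM in DMSO, 21.01, 16.8 and 18.00 CPM at 5 µM and 12.4, 13.8 and 15.7 CPM at 10 µM. The 3 groups did not overlap. RAD54L fell 1.52-fold at 5 µM and 2.03-fold at 10 µM, with log2 fold changes of -0.61 (SE 0.11, adjusted p = 0.00809) and -1.02 (SE 0.11, adjusted p = 0.000113). It was the only one of the 38 to pass both limits at 5 µM, and its change at 10 µM was -0.95 (adjusted p = 9.58e-07) without replicate 1. LRRC41 overlaps 25.1% of its exonic bases on the opposite strand. RAD51AP1 (chr12:4538798-4560048, plus strand), a DNA-binding factor that stimulates strand exchange, stood at 22.7, 20.4 and 18.9 CPM in DMSO, 17.1, 13.98 and 14.6 CPM at 5 µM and 10.7, 12.4 and 12.1 CPM at 10 µM. Its groups were also separate. RAD51AP1 fell at both doses, with log2 fold changes of -0.44 (SE 0.12, adjusted p = 0.0379) at 5 µM, -0.82 (SE 0.12, adjusted p = 0.000533) at 10 µM and -0.76 (adjusted p = 2.73e-05) at 10 µM without replicate 1. The related motor gene RAD54B changed by -0.42 (SE 0.17, adjusted p = 0.0795) at 10 µM, and 59.1% of its exonic bases are shared with FSBP on the same strand.

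**Figure D3:**
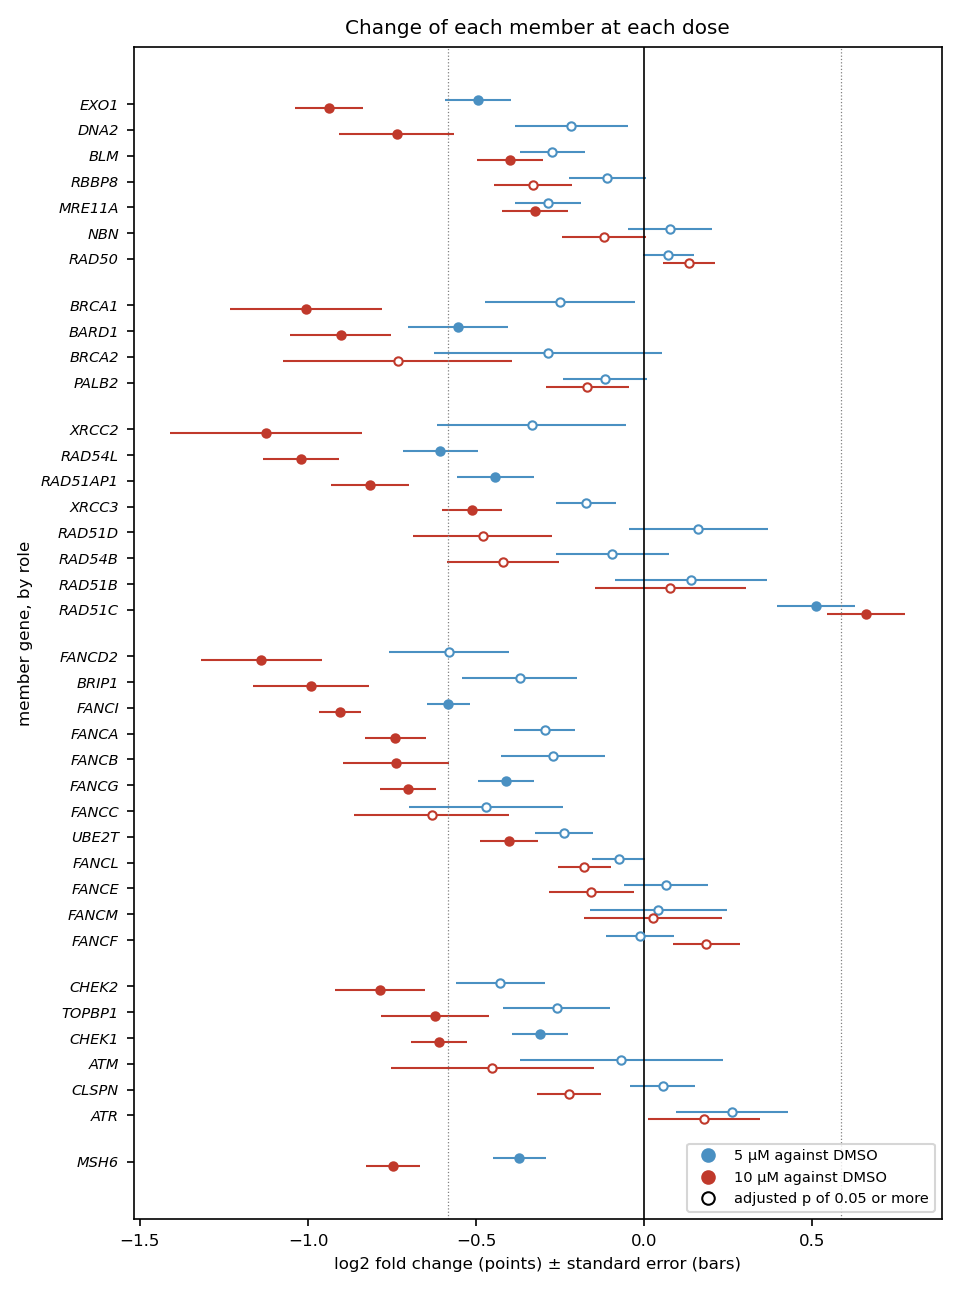
Log2 fold change against DMSO (points) with its standard error (bars) for each of the 38 genes at 5 µM (blue) and 10 µM (red), by role and ordered within a role by the change at 10 µM. Filled points passed the adjusted threshold of 0.05, open points did not, and dotted lines mark a fold of 1.5. RAD51C is the only filled point to the right of zero, and 21 red points to the left are filled.

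In the Fanconi anemia pathway, 7 of 12 genes fell at 10 µM (18.0% of all genes tested), 2 of them also at 5 µM (5.81%), and none rose. Both members of the ubiquitinated pair fell. FANCI (chr15:89243949-89317261, plus strand) stood at 108, 112 and 109 CPM in DMSO, 71.97, 74.1 and 73.4 CPM at 5 µM and 59.00, 58.5 and 58.03 CPM at 10 µM. The 3 groups were far apart for their spread, and 10 µM replicate 1 lay with the other libraries at its dose. FANCI fell 1.497-fold at 5 µM, just under the fold limit, and 1.87-fold at 10 µM, with log2 fold changes of -0.58 (SE 0.06, adjusted p = 0.000465) and -0.90 (SE 0.06, adjusted p = 5.88e-06), the smallest p of the 38 genes at either dose. Without replicate 1 the change at 10 µM was -0.91 (adjusted p = 3.22e-10), and between the doses it was -0.32 (SE 0.06, adjusted p = 0.0135). FANCD2 (chr3:10026414-10101930, plus strand) stood at 40.04, 43.5 and 43.5 CPM in DMSO, 27.3, 26.7 and 30.9 CPM at 5 µM and 13.1, 21.5 and 23.2 CPM at 10 µM. Its groups were separate, and 10 µM replicate 1 was the lowest library. FANCD2 fell 2.20-fold at 10 µM, its log2 fold change being -1.14 (SE 0.18, adjusted p = 0.00103), the largest fall of the 38 with all libraries included, and -0.93 (adjusted p = 1.35e-07) without replicate 1. At 5 µM its change of -0.58 (SE 0.18, adjusted p = 0.069) was close in size to that of FANCI and did not pass the test, and without 10 µM replicate 1 it was -0.58 (adjusted p = 1.11e-05).

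Of the core complex, which holds the ligase, FANCA, FANCG and FANCB fell at 10 µM. FANCA (chr16:89737549-89816657, minus strand), its largest scaffold, stood at 25.5, 23.9 and 25.9 CPM in DMSO, 20.3, 20.5 and 20.5 CPM at 5 µM and 14.9, 16.5 and 13.6 CPM at 10 µM. Its groups did not overlap. Its log2 fold change was -0.30 (SE 0.09, adjusted p = 0.0692) at 5 µM, -0.74 (SE 0.09, adjusted p = 0.000226) at 10 µM and -0.45 (SE 0.09, adjusted p = 0.0169) between the doses, and -0.74 (adjusted p = 5.98e-06) at 10 µM without replicate 1, and ZNF276 overlaps 23.6% of its exonic bases on the opposite strand. FANCG (chr9:35073835-35080016, minus strand), which binds FANCA directly, stood at 39.3, 36.3 and 37.3 CPM in DMSO, 30.2, 26.6 and 28.02 CPM at 5 µM and 24.5, 22.3 and 22.6 CPM at 10 µM. Its groups were separate as well, and 10 µM replicate 1 was the highest at its dose. FANCG fell at both doses, with log2 fold changes of -0.41 (SE 0.08, adjusted p = 0.0123) at 5 µM, -0.70 (SE 0.08, adjusted p = 0.000178) at 10 µM and -0.75 (adjusted p = 6.32e-07) without replicate 1. FANCB (chrX:14835961-14873069, minus strand), a subunit of the catalytic module, stood at 9.08, 10.4 and 9.10 CPM in DMSO, 9.40, 7.32 and 6.96 CPM at 5 µM and 4.96, 6.48 and 5.69 CPM at 10 µM. All 10 µM libraries were below all others, and 5 µM overlapped DMSO. FANCB changed by -0.74 (SE 0.16, adjusted p = 0.00535) at 10 µM on the log2 scale, and by -0.65 (adjusted p = 0.00221) without replicate 1.

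The ligase FANCL and the other core subunits did not pass the test at 10 µM, with log2 fold changes of -0.18 for FANCL (adjusted p = 0.112), -0.16 for FANCE (adjusted p = 0.371), 0.18 for FANCF (adjusted p = 0.186) and -0.63 for FANCC (adjusted p = 0.0582). FANCF was the only gene besides RAD51C whose 10 µM libraries all lay above DMSO. Without replicate 1, FANCL (-0.20) and FANCC (-0.38) passed as lower. UBE2T, the conjugating enzyme that works with FANCL, was lower, its log2 fold change at 10 µM being -0.40 (SE 0.09, adjusted p = 0.00585), and -0.50 (adjusted p = 5.05e-06) without replicate 1. FANCM (chr14:45135940-45200890, plus strand), the translocase that anchors the core complex to DNA, stood at 11.3, 12.00 and 12.8 CPM in DMSO, 10.2, 12.6 and 14.3 CPM at 5 µM and 8.86, 11.6 and 16.2 CPM at 10 µM. Its 10 µM libraries spread over both sides of DMSO. FANCM changed by 0.03 (SE 0.20, adjusted p = 0.937) at 10 µM on the log2 scale, and by 0.21 (adjusted p = 0.263) without replicate 1. BRIP1 (chr17:61681266-61863521, minus strand), a helicase that binds BRCA1 and is also known as FANCJ, stood at 22.1, 23.9 and 22.7 CPM in DMSO, 15.8, 18.6 and 18.7 CPM at 5 µM and 8.28, 11.8 and 14.4 CPM at 10 µM. Its groups did not overlap. BRIP1 fell 1.99-fold at 10 µM, its log2 fold change being -0.99 (SE 0.17, adjusted p = 0.00182), and -0.81 (adjusted p = 1.06e-05) without replicate 1, while its change at 5 µM was -0.37 (SE 0.17, adjusted p = 0.218).

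Of the 6 checkpoint genes, the kinases CHEK1 and CHEK2 and the activator TOPBP1 fell at 10 µM, against 18.0% of all genes tested. The kinases ATM and ATR and the adaptor CLSPN did not pass the test. The differences between these genes were not tested. CHEK1 (chr11:125625136-125676255, plus strand), the target of ATR, stood at 53.8, 56.6 and 50.99 CPM in DMSO, 44.9, 42.4 and 42.97 CPM at 5 µM and 32.1, 36.1 and 37.5 CPM at 10 µM. Its 3 groups were separate. CHEK1 fell at both doses, with log2 fold changes of -0.31 (SE 0.08, adjusted p = 0.0427) at 5 µM, -0.61 (SE 0.08, adjusted p = 0.000427) at 10 µM and -0.55 (adjusted p = 2.54e-06) without replicate 1. CHEK2 (chr22:28687743-28742422, minus strand), the target of ATM, stood at 12.1, 13.7 and 11.9 CPM in DMSO, 9.11, 9.14 and 9.73 CPM at 5 µM and 7.46, 8.31 and 6.07 CPM at 10 µM. Its groups were separate too, and 10 µM replicate 3 was the lowest library. CHEK2 changed by -0.43 (SE 0.13, adjusted p = 0.0707) at 5 µM, by -0.79 (SE 0.13, adjusted p = 0.00153) at 10 µM and by -0.81 (adjusted p = 0.000156) without replicate 1. The annotation lists 4 copies named after CHEK2, from CHEK2P2 to CHEK2P5, and 1 each for FANCD2, MRE11A, RAD51AP1 and RBBP8. Of these copies only CHEK2P2 has an entry among the counts, with which reads of CHEK2 may be shared. How reads from the other copies were counted cannot be seen from these data. TOPBP1 (chr3:133598175-133662380, minus strand), which activates ATR, stood at 105, 112 and 111 CPM in DMSO, 94.1, 89.8 and 90.1 CPM at 5 µM and 49.8, 81.2 and 82.1 CPM at 10 µM. Its groups did not overlap, and 10 µM replicate 1 was well below the other libraries at that dose. TOPBP1 changed by -0.62 (SE 0.16, adjusted p = 0.0136) at 10 µM on the log2 scale, and by -0.42 (adjusted p = 2.21e-06) without replicate 1, the latter short of a fold of 1.5.

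ATR (chr3:142449235-142578826, minus strand) stood at 55.7, 61.3 and 54.8 CPM in DMSO, 66.6, 69.4 and 69.9 CPM at 5 µM and 44.99, 71.4 and 77.9 CPM at 10 µM. All 5 µM libraries and 10 µM replicates 2 and 3 were above DMSO, and 10 µM replicate 1 was below it. With all libraries its log2 fold change was 0.26 (SE 0.17, adjusted p = 0.397) at 5 µM and 0.18 (SE 0.17, adjusted p = 0.455) at 10 µM, and without that library it was 0.26 (adjusted p = 0.00161) and 0.38 (adjusted p = 8.24e-05), so that the call of a rise rests on leaving it out. ATM changed by -0.45 (SE 0.30, adjusted p = 0.284) at 10 µM with replicate 1 and by -0.11 (adjusted p = 0.191) without it. CLSPN, the adaptor between ATR and CHEK1 also called claspin, changed by -0.22 (SE 0.10, adjusted p = 0.102), and by -0.32 (adjusted p = 0.00118) without replicate 1, which was its highest library at 10 µM.

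**Figure D4:**
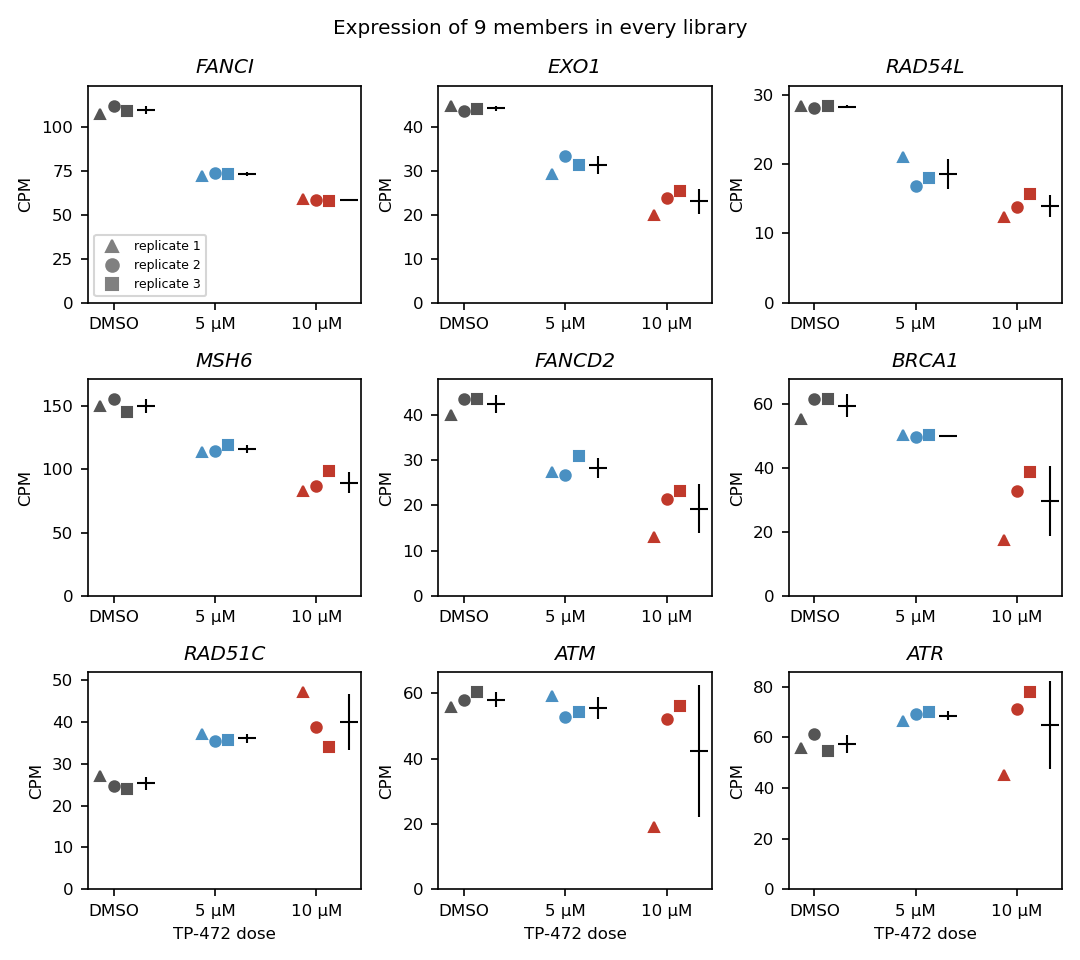
CPM of 9 genes (panels) in every library, by TP-472 dose, with triangles, circles and squares for replicates 1, 2 and 3, and the mean and SD of the 3 libraries in black beside them. FANCI, EXO1, RAD54L, MSH6, FANCD2 and BRCA1 step down with dose and RAD51C is above DMSO at both doses, while 10 µM replicate 1 (triangle) lies far below the other libraries for ATM and ATR.

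MSH6 (chr2:47695530-47810101, plus strand), a subunit of a complex that recognises mismatches, stood at 149.9, 156 and 145 CPM in DMSO, 114, 115 and 119.5 CPM at 5 µM and 82.7, 87.1 and 98.9 CPM at 10 µM. Its 3 groups were separate, with each dose below the one before. MSH6 fell at both doses, with log2 fold changes of -0.37 (SE 0.08, adjusted p = 0.0169) at 5 µM, -0.75 (SE 0.08, adjusted p = 9.47e-05) at 10 µM, -0.70 (adjusted p = 4.47e-08) at 10 µM without replicate 1, and -0.38 (SE 0.08, adjusted p = 0.0202) between the doses. FBXO11 overlaps 16.2% of its exonic bases on the opposite strand.

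For part of the genes the levels of the libraries were ordered by dose. In 15 of the 38, every DMSO library was above every 5 µM library and every 5 µM library above every 10 µM library, an order found in 9.24% of all genes tested. They were EXO1, BRCA1, XRCC2, XRCC3, RAD51AP1, RAD54L, FANCA, FANCG, FANCD2, FANCI, BRIP1, CHEK1, CHEK2, TOPBP1 and MSH6. Counting each comparison alone, 22 genes were lower in every library at 5 µM than in DMSO and 4 were higher (25.0% and 23.7% of all genes), and 25 were lower and 2 higher at 10 µM (26.0% and 23.4%). Between the doses 20 were lower in every library and 1 was higher (16.2% and 12.1%). The test of the doses against each other was passed by EXO1, XRCC3, FANCA, FANCI and MSH6. Without 10 µM replicate 1 it was passed by 18 genes, among them BRCA1 at -0.49 (adjusted p = 0.000159) and FANCD2 at -0.35 (adjusted p = 0.00524) on the log2 scale.

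Other genes of the same pathways and of DNA replication are given by list, to be read against the 18.0% lower and 16.4% higher of all genes tested at 10 µM, and the differences between lists were not tested. Of 21 other homologous recombination genes 7 were lower and 2 higher at 10 µM, with a median log2 fold change of -0.27. RMI2, a subunit of the complex of BLM, changed by -1.55 (SE 0.18, adjusted p = 0.000162), and RPA1, the large subunit of the single-strand binding protein, by -0.58 (SE 0.08, adjusted p = 0.000343). Of 11 other Fanconi genes 2 were lower, a share near that of all genes, and none higher, with a median of -0.04. These were USP1, which removes ubiquitin from FANCD2, at -0.42 (SE 0.10, adjusted p = 0.00992), and RFWD3, a ligase for RPA, at -0.33 (SE 0.11, adjusted p = 0.044). Of 16 other checkpoint and break signalling genes 4 were lower and 1 higher, with a median of -0.25, among them TIMELESS, a fork protection factor, at -0.69 (SE 0.09, adjusted p = 0.000286), and HUS1, a subunit of the checkpoint clamp, which rose by 0.69 (SE 0.08, adjusted p = 0.000219). Of 34 replication genes 29 were lower and 1 higher, with a median of -0.66. The helicase subunits MCM5 and MCM2 stood at -1.20 (SE 0.07, adjusted p = 2.09e-06) and -1.06 (SE 0.07, adjusted p = 3.42e-06). Without 10 µM replicate 1, where 25.8% of all genes were lower and 23.0% higher, 9 of the 21 other homologous recombination genes were lower and 3 higher, with a median of -0.18. Of the 11 other Fanconi genes 4 were then lower and 1 higher (median -0.04), of the 16 checkpoint and signalling genes 6 and 2 (median -0.14), and of the 34 replication genes 31 and 1 (median -0.71).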

How the data were processed

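Per the labels, mRNA of A375 cells was sequenced on an Illumina instrument. The authors deposited expected counts per gene symbol, not scaled to library size, for 9 libraries. The submitters' processing notes name Bowtie2 2.1.0, RSEM 1.2.15 and hg38, while the annotation and strand setting are not named in any source used. Methods describe oligo-dT beads and the series text ribosomal RNA depletion, which could not be settled. Of the values, 10.6% to 13.8% per library were not whole, and all were rounded.

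Counts were tested in edgeR 4.0.16 (R 4.3.3) with TMM factors (0.957 to 1.029), filterByExpr and the quasi-likelihood F test on all 3 groups in 1 fit, with Benjamini-Hochberg adjustment over 16417 genes. The fit was tested on simulated data. Standard errors equal the size of the log2 change over the square root of F. CPM use TMM-scaled sizes. Alternatives used DESeq2 1.42.0, limma 3.58.1, other factors and filters, a replicate block, an offset for length and GC content, only the groups compared, removal of ribosomal RNA genes, and each library left out. Positions and overlaps are from GENCODE 29 (GRCh38). Tables were made with Python 3.11.15, pandas 2.3.3 and numpy 2.4.6.

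The members, roles and other lists were chosen with earlier results of these data known. Values in every library are given for members called with a fold of at least 1.5 at either dose, and for the 2 smallest and the largest p at 10 µM in each role. In other lists the 2 smallest p are named, and a list of other mismatch repair genes is not reported here. Further members are named to account for all 38.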

Additional observations from a re-analysis of the deposited data

How the results depend on the processing

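Of the 22 calls at 10 µM, 20 were kept in all 20 alternatives. MRE11A was lost with the length and GC offset, with the block and that offset, and without each DMSO library, and BLM was lost with both offset fits. Of the 9 calls at 5 µM, RAD54L and FANCI were kept in all 20, and of the 5 calls between the doses none was. The count of 9 at 5 µM became 15 with the length and GC offset, 14 with the offset and the block, 23 in a fit of only the groups compared, and 2 to 21 with 1 library left out. The count of 5 between the doses became 12 in DESeq2, 10 with the offset, 0 in a fit of only the groups compared and 0 to 18 with 1 library left out. With a fold of at least 1.5, the 1 gene at 5 µM became 2 without a filter and 1 to 2 with 1 library left out, and the 0 between the doses became 1 without a filter, 3 in DESeq2, 2 in limma-voom, 1 with the block, 1 with the offset, 1 with both, and 0 to 5 with 1 library left out. At 10 µM the count stayed within 21 to 29, and within 14 to 20 with the fold. The cause of these moves was not tested, except that leaving out 10 µM replicate 1 removes the library whose long genes were low. Apart from the fit without that library, the shares of all genes called in the alternatives are not given. Whether these counts moved more than those over all genes was therefore not tested.

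No pairing of the libraries by replicate number was seen: the deviations of same-numbered libraries correlated at -0.049 to 0.032, and 3 of 9 libraries correlated best with one of their own number. With so few libraries in a group, this check cannot show that same-numbered libraries were handled separately. With the replicate number as a block, 6 genes were called at 5 µM, 24 at 10 µM and 5 between the doses, and 1, 19 and 1 with the fold. The shares over all genes in this fit are not given either.

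Changes of sign concerned only genes not called in either fit. Between the doses, the offset moved MRE11A to 0.14, BLM to 0.0036, FANCM to 0.13 and ATR to 0.080, the block with the offset moved MRE11A to 0.14, FANCM to 0.13 and ATR to 0.079, and upper-quartile factors moved FANCM to 0.011. At 10 µM, FANCM moved to -0.012 in limma-voom and to -0.013 with the block. With 1 library left out, the log2 fold changes that crossed zero ran, at 5 µM, for RAD51B from -0.0245 to 0.24, RAD54B from -0.26 to 0.0565, FANCE from -0.0447 to 0.13, FANCF from -0.0363 to 0.0021 and FANCM from -0.0738 to 0.16; at 10 µM, for NBN from -0.26 to 0.024, RAD51B from -0.10 to 0.23 and FANCM from -0.23 to 0.21; and between the doses, for MRE11A from -0.13 to 0.0134, PALB2 from -0.14 to 0.0871, RAD51B from -0.24 to 0.0954, FANCC from -0.34 to 0.0879, FANCM from -0.27 to 0.17 and ATR from -0.24 to 0.12.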

Other observations

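Nonhomologous end joining, the other main route of break repair, showed no common direction. Of 8 genes at 10 µM, 1 was lower and 2 were higher, with a median log2 fold change of 0.06, against 18.0% lower and 16.4% higher of all genes tested. Without 10 µM replicate 1, 2 were lower and 2 higher (25.8% and 23.0% of all genes), with a median of -0.06. The lower gene with all libraries, named after its values were seen, was PRKDC, the catalytic subunit of the DNA-dependent kinase, which stood at 747, 789.6 and 739 CPM in DMSO, 621, 608 and 618 CPM at 5 µM and 233, 540.4 and 547 CPM at 10 µM. PRKDC changed by -0.79 (SE 0.25, adjusted p = 0.0363), and by -0.48 (adjusted p = 9.82e-09) without 10 µM replicate 1, which was its lowest library. The ligase gene LIG4 changed by 0.72 (SE 0.20, adjusted p = 0.0184) and the end-joining factor NHEJ1 by 0.54 (SE 0.13, adjusted p = 0.00943). LIG4 stood at 30.6, 30.5 and 33.1 CPM in DMSO, 47.1, 47.1 and 48.98 CPM at 5 µM and 33.4, 55.4 and 66.6 CPM at 10 µM, and NHEJ1 at 9.08, 9.30 and 9.50 CPM in DMSO, 11.2, 12.2 and 9.61 CPM at 5 µM and 15.6, 12.1 and 12.9 CPM at 10 µM.

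Of 19 genes for E2F, RB and MuvB factors, which control S-phase and mitotic transcription, 11 were lower and 2 higher at 10 µM (18.0% and 16.4% of all genes tested), with a median of -0.45. Without 10 µM replicate 1, 11 were lower and 4 higher (25.8% and 23.0%), with a median of -0.40. MYBL2, the S-phase partner of MuvB, stood at 107, 98.4 and 109 CPM in DMSO, 67.9, 75.7 and 68.7 CPM at 5 µM and 58.2, 49.2 and 54.5 CPM at 10 µM, and changed by -0.96 (SE 0.09, adjusted p = 3.35e-05) at 10 µM. FOXM1, its partner in G2, stood at 165, 171 and 176 CPM in DMSO, 110.3, 118.9 and 120.4 CPM at 5 µM and 82.3, 97.4 and 86.8 CPM at 10 µM, and changed by -0.94 (SE 0.08, adjusted p = 2.18e-05). In both genes all 10 µM libraries were below all DMSO libraries.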
